A study of Mus musculus with 6 samples.

Results

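Ribosomal protein genes encode the proteins of the small (Rps) and large (Rpl) ribosomal subunits. They were taken here as every gene name in the authors' comparison of ZFP36L2 with IgG that matches the Rpl, Rps, Rplp or Rpsa naming pattern, without the Rps6k kinases. The pattern found 43 genes with 115 peaks, of 10818 gene names and 55449 peaks in all. The names comprise 22 small subunit genes and 21 large subunit genes, and they include relatives with a like name, such as Rpl3l, Rpl7l1 and Rpl32l. Of the 86 RefSeq protein-coding genes whose symbol matches the same pattern, 42 had a peak; the remaining member, Rps4l, is a transcribed pseudogene in RefSeq.

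Ribosomal proteins assemble with ribosomal RNA in the nucleolus, and a growing cell makes them in large and balanced amounts. Their mRNAs are short, abundant, mostly translated, and known for a pyrimidine-rich tract at the very start (the terminal oligopyrimidine tract) through which growth signals control their translation. Many of the genes carry small nucleolar RNAs in their introns and have many processed copies in the genome, which share sequence with the mRNA. ZFP36L2 is a CCCH zinc finger protein best known for binding AU-rich elements in 3′ UTRs and promoting mRNA decay.

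The libraries were made by eCLIP: ultraviolet light joins proteins to RNA in living cells and an antibody recovers the protein with its RNA. All libraries came from MLTC-1, an established mouse line from a Leydig cell tumour, crosslinked at 254 nm with 400 mJ per cm2, with 20 ug of RNA (integrity number 8.35) per the labels' protocols. There were 2 immunoprecipitation (IP) libraries with an Abcam antibody labelled ZFP36L2 and 2 matching inputs. Rabbit IgG, the control antibody, gave 1 IP library and 1 input. For each peak the authors give a log2 ratio of ZFP36L2 to IgG with its p-value, raw and adjusted. No column gives a library's own value, so depth, spread between libraries and errors of the fold changes are unknown, and with 1 IgG library a difference between antibodies and a difference between libraries cannot be told apart. Of 7 Leydig cell markers, 4 had peaks (Cyp11a1, Lhcgr, Nr5a1 and Star). So did 1 of 4 Sertoli cell, 1 of 3 germ cell and 3 of 3 macrophage markers, and all 4 genes checked for cardiac muscle, among them Myh6 with 44 peaks and Rpl3l.

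Runs of C and T near the listed starts were looked for in the promoter table. RefSeq promoter windows on GRCm38.p6, the assembly that corresponds to mm10, were at hand for 32 of the 43 members. A run of 6 or more C or T, on the transcribed strand and within 20 bases of the listed start on either side, was found in 25 of them (78.1%), against 41.2% of all 27025 genes with a window. A C at the listed start followed by 4 of C or T was found in 7 (21.9%), against 3.01% of all. Of the 25 longest runs, 10 ended before the listed start, 6 lay over it and 9 began after it, so most do not cover the listed start. These matches describe the letters only. The members with a called peak (defined below) and such a run are printed here because genes called in either direction have it. The longest run is in capitals, and the strand is that of the gene. The runs of Rps15, Rpl4 and Rps15a end before the listed start, those of Rpl32l, Rps6 and Rpl28 lie over it, and those of Rps2 and Rpl13a begin after it.
Rps15, chr10:80292403-80292426, plus strand: ggaggcgggCCCTCCCggcagagc
Rps2, chr17:24720058-24720081, plus strand: gatctcgcgCTTCTTggagcacta
Rpl4, chr9:64173364-64173387, plus strand: acaagTCTTTCCTTTTCCTgtggg
Rpl32l, chr10:20208432-20208455, plus strand: tgaccagCTTCTTCCTTggtgctg
Rpl13a, chr7:45128725-45128748, minus strand: caagaCCTCCTCCTTTCCCaggcg
Rps6, chr4:86857352-86857375, minus strand: agtcgggCCTCTTTTTCgtgacgc
Rpl28, chr7:4792955-4792978, plus strand: tctcgtgTCTCTCTTTCCgtctcc
Rps15a, chr7:118116146-118116169, minus strand: cggcccaCTCTCTTTCTgccatct

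Rps15, Rps2, Rpl4 and Rpl32l had an enriched peak, and Rpl13a, Rps6, Rpl28 and Rps15a a depleted one. Rps7 and Rps3 are not among the 25 members with a run, but windows were at hand for only 32 of the 43 members.

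The comparison asks at which RNA sites more was recovered with the ZFP36L2 antibody than with control IgG. Peaks with an adjusted p below 0.05 count as enriched where the log2 fold change is at least 1, and as depleted where it is at most -1. By this rule 7 ribosomal protein peaks were enriched (6.09%, against 2.22% of all peaks), among them 1 in each of Rps15, Rps7, Rps2, Rps3, Rpl4 and Rpl32l. Another 5 were depleted (4.35%, against 5.44% of all peaks), in Rps15a, Rpl28, Rpl13a and Rps6. Counted by gene, 7 of 43 members had an enriched peak, where 5.04% of all genes did. A depleted peak occurred in 4 members, where 17.3% of all genes had one. Members had a median of 2 peaks per gene against 3 over all genes, and fewer peaks give a gene fewer chances of a call. No member had both. The other 32 genes, and 103 of the 115 peaks, were not called in either direction. The adjusted p of 84 member peaks was 1 after rounding.

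**Figure D1:**
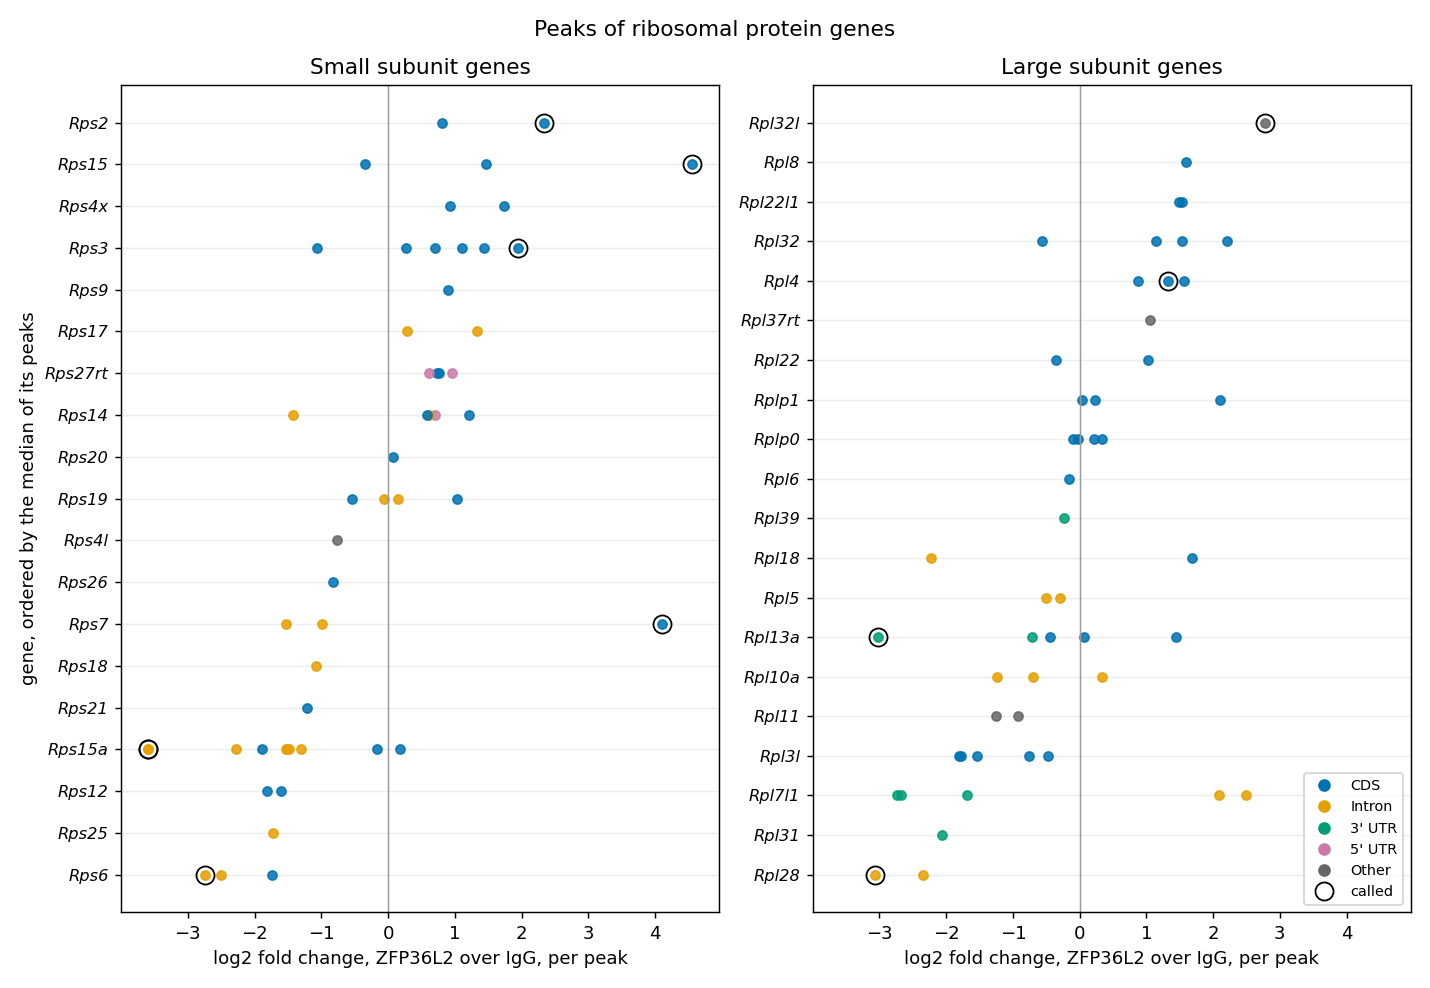
Each point is 1 peak of 39 of the 43 members, placed by its log2 fold change of ZFP36L2 over IgG by the authors' deposited table (horizontal axis) and by its gene (vertical axis, ordered by the median of the gene's peaks), with small subunit genes on the left and large subunit genes on the right. Colours give the transcript region and rings mark the 11 called peaks among them; Rps15 reaches 4.55 and Rps15a falls to -3.59, and the 2 rings of Rps15a lie on each other.

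Across all 115 peaks the median log2 fold change by the authors' deposited table was 0.03, with quartiles at -1.23 and 1.02. The median over all 55449 peaks was -1.06. Values above 0 made up 50.4% of the ribosomal protein peaks and 23.6% of all peaks. Values of at least 1, at any p, occurred in 30 member peaks (26.1%, against 8.16% of all), and values of at most -1 in 32 (27.8%, against 51.8% of all). The family thus lay about 1.09 above the table's own centre on the log2 scale, and its direction against 0 depends on how the values were scaled, which the sources used here do not give.

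The members divided by transcript region. Coding sequence held 70 of the 115 peaks (60.9%, exact binomial 95% interval 51.3 to 69.8 for counting error only), against 37.0% of all peaks. Of these, 6 were enriched (8.57%, against 2.35% of all coding peaks) and none was depleted (against 3.74%). Introns held 29 peaks, of which 4 were depleted (13.8%, against 7.04% of all intronic peaks) and none was enriched (against 2.17%). The 3′ UTR, where AU-rich elements usually lie, held 7 member peaks, most of them in Rpl7l1 and Rpl13a and some touching. All 7 were below 0, and of all 3′ UTR peaks only 21.4% were above 0. Among the 7, 1 was depleted, where 4.83% of all 3′ UTR peaks were depleted. Of the 5 peaks in the class Other, 1 was enriched, against 3.36% of that class. The 4 peaks in 5′ UTRs, of which those of Rps27rt touch, were all above 0, against 23.6% of all 5′ UTR peaks. None was called, where 3.18% of all 5′ UTR peaks were enriched and 5.78% depleted.

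Levels followed the same division. Coding peaks of ribosomal protein genes had a median log2 fold change of 0.46 by the authors' deposited table, and 58 of the 70 (82.9%) lay above -0.72, the median of all coding peaks. Intronic peaks had a median of -1.30, next to -1.31 for all intronic peaks by the authors' deposited table, and 15 of the 29 lay above the latter. In 3′ UTRs the member median, over only 7 peaks of few genes, was -2.06 and that of all peaks -1.08, by the authors' deposited table. Touching peaks of a gene are not independent, and 51 of the 115 peaks touched another peak of their gene, so these shares carry no test.

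**Figure D2:**
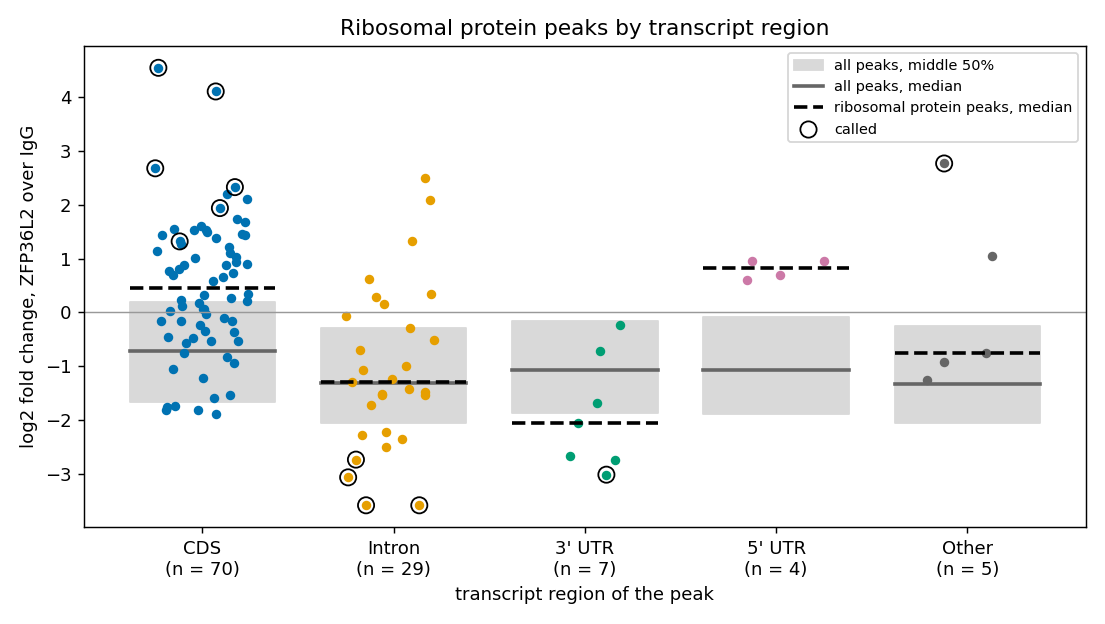
Points are the ribosomal protein peaks, with the ZFP36L2 over IgG log2 fold change on the vertical axis and the transcript region on the horizontal axis; points are spread sideways only to separate them. The grey band and line give the range between the quartiles and the median of all peaks of the region, the dashed line is the median of the ribosomal protein peaks, and rings mark called peaks. In coding sequence the dashed line stands at 0.46 and the grey line at -0.72, whereas both lie near -1.3 in introns.

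Within single genes the order was the same. Coding and intronic peaks were both present in 6 members, and in all 6 the coding median was higher, by a median of 1.33 on the log2 scale; over all genes with both kinds of peak it was higher in 65.7% of 3244. The widest gaps between coding and intronic medians by the authors' deposited table were 4.11 against -1.26 in Rps7 and 1.69 against -2.22 in Rpl18, a large subunit gene. The coding value of Rps7 and both values of Rpl18 rest on 1 peak each, and neither Rpl18 peak was called. Rps15a, Rps14, Rps6 and Rps19 followed, with differences of 1.37, 1.29, 0.89 and 0.20 computed from the authors' deposited table. In Rps15a and Rps6 both medians were below 0.

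Small subunit genes held 5 of the 7 enriched peaks and 3 of the 5 depleted ones, and 64 of the 115 peaks. The enriched share was 7.81% of their peaks and 3.92% of the 51 large subunit peaks, against 2.22% of all peaks. The depleted share was 4.69% and 3.92%, against 5.44% of all peaks. A difference between the subunits was not tested. Rps15 encodes a protein of the head of the small subunit. Its 3 coding peaks, in the order of the transcript, had log2 fold changes of 1.46, 4.55 and -0.35 by the authors' deposited table. Only the middle one, chr10:80293759-80293821 on the plus strand, was enriched (adjusted p = 1.3e-13), the highest value and the smallest adjusted p of any member. It lies 1359 nucleotides of genome from the listed gene start, and it does not touch its neighbours.

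Rps7 had 1 coding and 2 intronic peaks. The coding peak, chr12:28635616-28635665 on the minus strand and 313 nucleotides from the gene start, had 4.11 (adjusted p = 2.2e-06) by the authors' deposited table. The intronic peaks touch each other farther along the gene and stood at -1.53 and -0.99 by the authors' deposited table, neither of them called. High and low values thus occurred in 1 gene, in different regions.

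Rps2 and Rps3 encode proteins that line the channel where mRNA enters the small subunit. Of the 2 coding peaks of Rps2, the one at chr17:24721631-24721711 on the plus strand was enriched with 2.33 (adjusted p = 4.0e-06) by the authors' deposited table, and the one nearer the gene start had 0.81. Rps3 had 6 coding peaks, with values of 1.43, -1.06, 0.27, 0.70, 1.11 and 1.94 from the gene start to its end by the authors' deposited table. The last of them, chr7:99479284-99479351 on the minus strand, was the enriched one (adjusted p = 0.012). In both genes the called peak was the one farthest from the start.

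Among large subunit genes, Rpl4, whose protein lines the tunnel for the nascent peptide, had 3 coding peaks of 1.56, 1.32 and 0.88 by the authors' deposited table. Only the second, chr9:64176967-64177052 on the plus strand, was enriched, and its adjusted p of 0.048 by the authors' deposited table made it the enriched member peak nearest the threshold. The first of the 3 had a larger log2 fold change and was not called. Just outside the threshold was Rplp1, an acidic protein of the stalk, with a coding peak of 2.11 (adjusted p = 0.065) at chr9:61914366-61914437 by the authors' deposited table. Fold change and p therefore ranked the members differently, and the read counts behind them are unknown.

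Rpl32l is listed in RefSeq as a protein-coding gene of 592 nucleotides inside the span of Map7. Its only peak, chr10:20208474-20208541 on the plus strand and of the class Other, was enriched with 2.77 (adjusted p = 0.0013) by the authors' deposited table. Rpl32 itself had 4 coding peaks with 2.21, 1.54, 1.14 and -0.57 by the authors' deposited table, and none of these was called. The sources used here do not give how reads that fit both genes were assigned, so the split between Rpl32l and Rpl32 is uncertain. The first 15 of the 68 bases of the enriched peak are in the RefSeq promoter table and are printed because this is the only called member peak whose sequence could be read, in part. They hold no ATTTA.
Rpl32l, chr10:20208474-20208488, plus strand: tctgttttgcggcat

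The depleted peaks lay outside coding sequence. Rps15a, with 10 peaks the member with the most, had 7 in introns and 3 in coding sequence. Its depleted peaks touch each other at chr7:118110190-118110202 and chr7:118110203-118110245 on the minus strand, and both had -3.59 (adjusted p = 0.0049 and 0.006) by the authors' deposited table. They are the lowest values of the family. The other intronic peaks of Rps15a lay between -2.28 and -1.30, and the coding peaks at -1.89, -0.16 and 0.18, by the authors' deposited table. Only 1 of the 10 was above 0.

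Rpl28, a large subunit gene, had a depleted intronic peak at chr7:4793875-4793914 on the plus strand with -3.07 (adjusted p = 0.002) by the authors' deposited table. The intronic peak touching it had -2.35 by the authors' deposited table and was not called. Rps6, the ribosomal substrate of S6 kinase, had intronic peaks of -2.74 and -2.51 and a coding peak of -1.74 by the authors' deposited table. The first, chr4:86857276-86857314 on the minus strand and 72 nucleotides from the gene start, was depleted (adjusted p = 0.037) and is the depleted member peak nearest the threshold. Just outside it was a 3′ UTR peak of Rpl7l1 at -2.67 (adjusted p = 0.17) by the authors' deposited table.

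Rpl13a, whose protein also serves in inflammatory translational control, had values on both sides of 0. A peak of 6 nucleotides in its 3′ UTR, chr7:45125635-45125640 on the minus strand, was depleted with -3.02 (adjusted p = 1.1e-05) by the authors' deposited table. The longer 3′ UTR peak that touches it had -0.72, and its coding peaks had 1.44, 0.06 and -0.45, by the authors' deposited table, and none of these was called. These coding peaks also carry the name Gm45713 in the table, and they are the 3 member peaks with a second name.

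**Figure D3:**
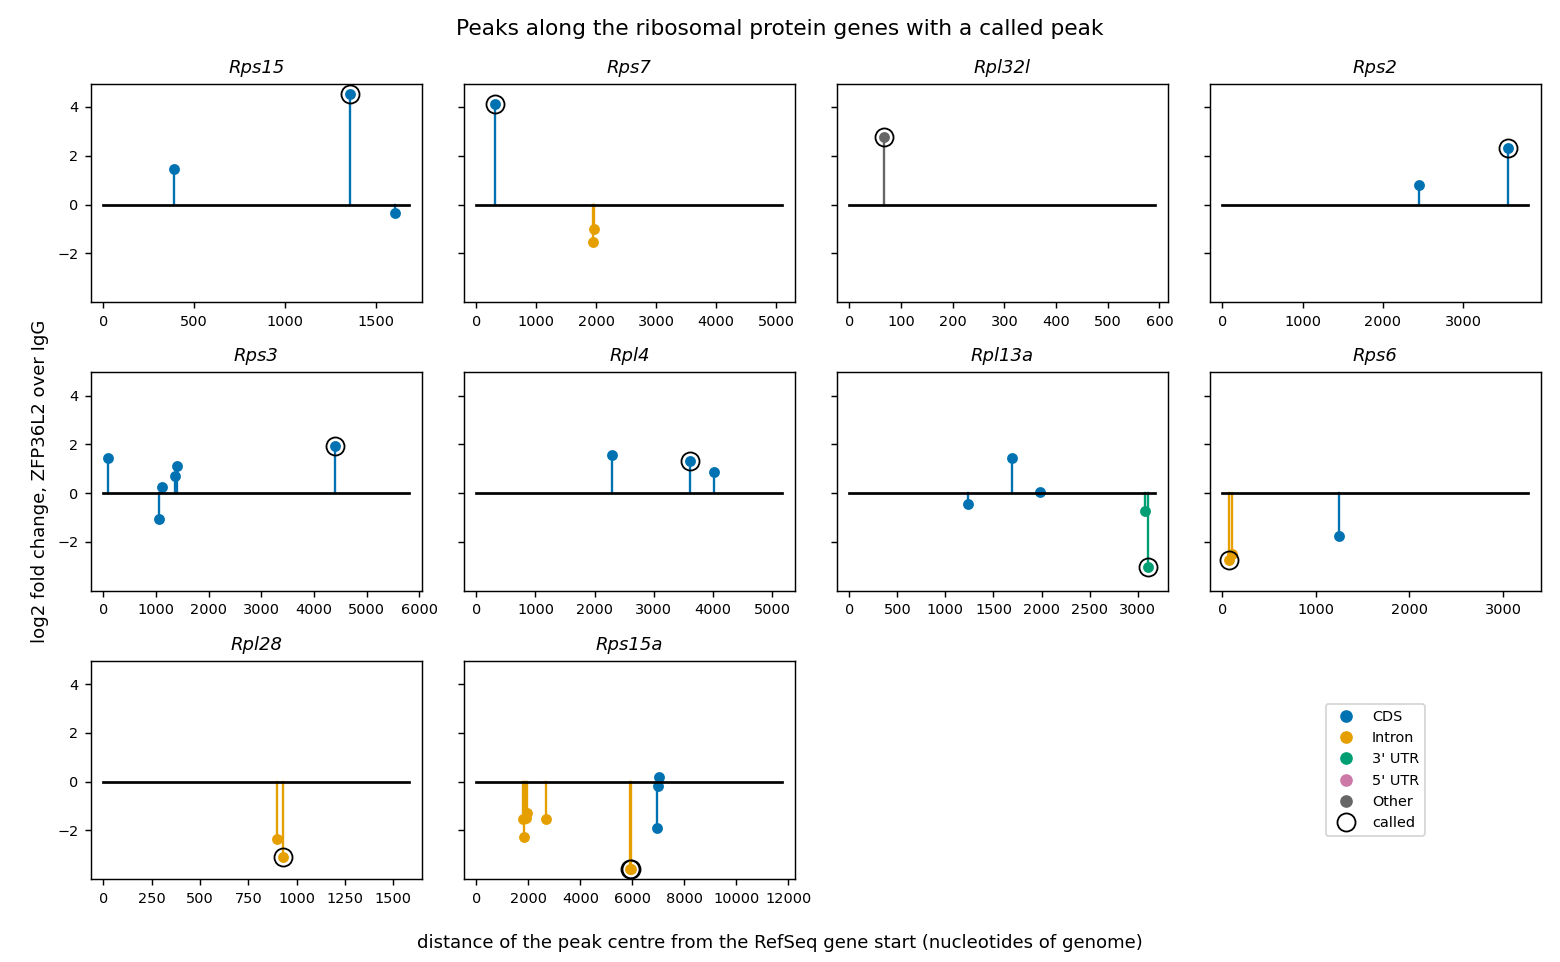
One panel for each of 10 genes with a called peak, with the distance of each peak's centre from the RefSeq gene start in nucleotides of genome (horizontal axis, introns included; the black line spans the gene) and the ZFP36L2 over IgG log2 fold change (vertical axis). Colours give the region and rings the calls; the 5 ringed coding peaks point up and the 4 ringed intronic peaks point down, 2 of which overlap in Rps15a.

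Among the uncalled members, 23 peaks had values of at least 1 and 27 of at most -1. Rps4x, the X-linked form of a small subunit protein, had coding peaks of 1.73 and 0.93 by the authors' deposited table. Rpl8, Rps9 and Rps20 each had 1 coding peak, at 1.60, 0.90 and 0.07 by the authors' deposited table. Rplp0, the base of the stalk, had 4 coding peaks that all lay between -0.10 and 0.34 by the authors' deposited table, the narrowest range of any member with 4 peaks or more except Rps27rt. Rps14 and Rps19, both known from anaemias with too little ribosomal protein, ranged from -1.42 to 1.21 and from -0.54 to 1.03 by the authors' deposited table. The -1.42 of Rps14 came from an intronic peak outside the RefSeq gene; without it, the coding median of Rps14 was still above its intronic one.

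Rpl5 and Rpl11, which bind 5S ribosomal RNA and can restrain the p53 inhibitor Mdm2, had peaks only below 0. The 2 intronic peaks of Rpl5 had -0.51 and -0.29, and the 2 peaks of Rpl11, of the class Other and outside the RefSeq gene, -1.26 and -0.93 by the authors' deposited table. Rps12 had 2 touching coding peaks at -1.82 and -1.60 by the authors' deposited table. Rps21, Rps26 and Rpl6 had 1 coding peak each at -1.22, -0.83 and -0.16 by the authors' deposited table. In all, 14 members had only peaks above 0, 15 only peaks below 0, and 14 peaks on both sides.

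The relatives with names ending in l or l1 (Rpl3l, Rpl7l1, Rpl22l1, Rpl32l and Rps4l) had 14 peaks with a median of -0.76 by the authors' deposited table. Of these 14, 1 was enriched, that of Rpl32l (7.14%, against 2.22% of all peaks), and none was depleted (against 5.44%). Rpl3l, a form of Rpl3 made in heart and skeletal muscle, had 5 coding peaks, all below 0, from -1.81 to -0.48 by the authors' deposited table. Rpl22l1 had 2 touching coding peaks at 1.53 and 1.49 by the authors' deposited table, and Rpl22 had 1.02 and -0.36. Rpl7l1 had the highest intronic values of the family, 2.50 and 2.09, whereas its 3′ UTR peaks had -1.69, -2.67 and -2.74, by the authors' deposited table. None of these was called.

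Rps27rt, a copy of Rps27 within the span of Osbpl10, had 4 peaks, of which neighbouring ones touch, with 0.77, 0.74, 0.61 and 0.96 by the authors' deposited table. The peak of 29 bases with 0.74 is printed because no other member peak that covers a start codon could be read whole; the ATG is in capitals.
Rps27rt, chr9:114982697-114982725, minus strand: cgacctccctacgagaacATGcctctcgc

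**Figure D4:**
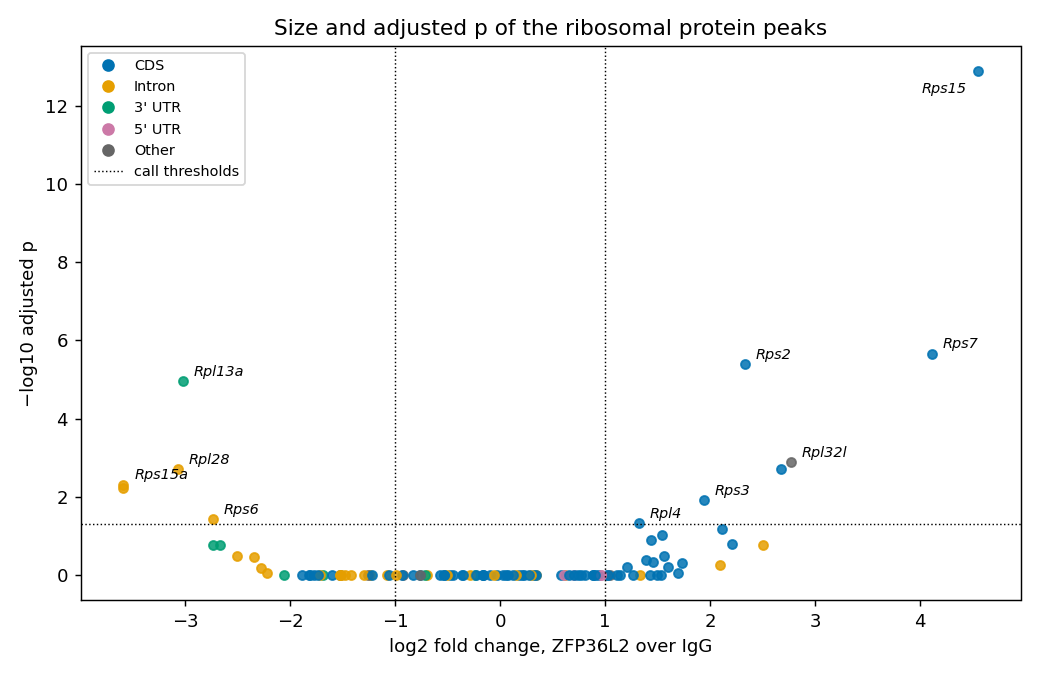
Each of the 115 ribosomal protein peaks is placed by its log2 fold change of ZFP36L2 over IgG (horizontal axis) and its −log10 adjusted p (vertical axis), with the call thresholds as dotted lines and colours for the transcript region. Of the 11 genes with a called peak, 10 are named; Rps15a is named once for 2 peaks, and Rpl4 and Rps6 lie closest to the adjusted p threshold.

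Coverage of the family was uneven. Of the RefSeq genes, 21 of 32 Rps symbols had a peak and 21 of 54 Rpl symbols did, where 43.3% of all RefSeq protein-coding genes had one. Members without a peak included Rpl3, Rpl10, Rpl41, Rps27a and Rpsa. Chromosome 7, with 14 of the 86 RefSeq genes (16.3%), held 42 of the 115 member peaks (36.5%), against 6.43% of all peaks. Of its 10 members with a peak, 3 had a depleted one and 2 an enriched one, against 17.3% and 5.04% of all genes. Of the 42 peaks, 4 were depleted (9.52%, against 5.44% of all peaks) and 2 enriched (4.76%, against 2.22%). The shares called over all peaks of chromosome 7 were not counted. None of the 7 RefSeq genes of the family on chromosome 11 had a peak, although 49.0% of the coding genes of that chromosome did.

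Copies named as ribosomal protein pseudogenes, gathered once the values had been seen, had 41 peaks in 30 pseudogenes of 25 parent genes. The median was -0.09 by the authors' deposited table. An enriched peak occurred in 2 of them, Rpl14-ps1 with 2.54 (adjusted p = 1.5e-06) at chr7:45325132-45325202 and Rps16-ps2 with 2.88 (adjusted p = 0.014) at chr5:129128354-129128399 by the authors' deposited table, and none was depleted. That is 6.67% of the 30 pseudogenes, near the 5.04% of all genes, and 4.88% of their peaks, against 3.36% of all peaks of the class Other. Neither Rpl14 nor Rps16 had a peak of its own. In all, 14 of the 44 RefSeq members without a peak had one in a named pseudogene. Members without a peak had a median of 2.5 named pseudogenes in RefSeq and those with a peak a median of 1; the part of read assignment in this was not tested.

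Small nucleolar RNAs and other small RNAs lie inside 14 of the 43 members, 32 of them in RefSeq, among them Snord32a, Snord33 and Snord34 in Rpl13a. No peak named for a member overlapped any of them, but a peak over a small RNA can carry the small RNA's own name. Over these 32 there were 4 such peaks: 1 named Snord15b, inside Rps3, at chr7:99479648-99479710 with 0.00, and 3 named Snord16a, inside Rpl4, between chr9:64175422 and 64175480 with -0.36, -0.41 and -0.46, by the authors' deposited table. None of the 4 was called. Of the 31 peaks named for the host genes, 2 were intronic. Of the 14 hosts, 3 had an enriched peak (21.4%; Rps2, Rps3 and Rpl4) and 1 a depleted one (7.14%; Rpl13a), against 13.8% and 10.3% of the other 29 members and 5.04% and 17.3% of all genes.

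Other genes of the translation machinery were counted in the same way. Of 21 listed non-ribosomal genes known or thought to carry a terminal oligopyrimidine tract, 18 had peaks, 5 of them an enriched one (27.8%) and 2 a depleted one (11.1%), against 5.04% and 17.3% of all genes. All 5 enriched peaks were coding. They lay in Pabpc1, the poly(A)-binding protein (3.57, adjusted p = 2.6e-14), the elongation factor genes Eef1g (4.77, adjusted p = 1.4e-09), Eef2 (2.21, adjusted p = 1.7e-06) and Eef1b2 (3.24, adjusted p = 1.1e-04), and Rack1 (1.76, adjusted p = 0.026), by the authors' deposited table. The depleted peaks lay in Pabpc1 and Eif3e. The coding median of the list was 0.30 and the intronic median -0.85 by the authors' deposited table.

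Of 45 listed ribosome biogenesis factors, 34 had peaks, 5 of them an enriched one (14.7%, against 5.04% of all genes) and 6 a depleted one (17.6%, near the 17.3% of all genes). Ncl, the nucleolar protein nucleolin, was enriched in 4 of its 4 peaks, from 1.91 to 2.11 by the authors' deposited table (best adjusted p = 4.0e-24). These 4 peaks touch end to end, so they describe 1 stretch of coding sequence. Bysl, a small subunit assembly factor, was enriched in 3 of its 3 peaks, of which the intronic ones touch (best adjusted p = 4.5e-13 by the authors' deposited table). Pes1, a large subunit assembly factor, was enriched in 1 of its 5 (3.47, adjusted p = 7.1e-10) by the authors' deposited table. Polr1a, the largest subunit of RNA polymerase I, was depleted in 2 of its 10 peaks, down to -3.75 by the authors' deposited table. Las1l and Nop58 also had an enriched peak, and Fbl, Rrn3, Nob1, Nvl and Nop14 a depleted one. The median of this list's peaks was -1.11 by the authors' deposited table, near that of all peaks.

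Mitochondrial ribosomal protein genes, which are nuclear genes for the separate ribosome of mitochondria, had peaks in 52 members. None was enriched (against 5.04% of all genes) and 4 had a depleted peak (7.69%, against 17.3% of all genes). These were Mrpl4, Mrpl51, Mrpl19 and Mrps9, with -3.83, -4.06, -3.30 and -2.76 by the authors' deposited table. The genes had only 121 peaks, of which 4 were depleted and none enriched, against 5.44% and 2.22% of all peaks. Their 52 coding peaks had a median of -0.87 by the authors' deposited table, against 0.46 for cytosolic ribosomal protein genes. Among 15 host genes of small nucleolar RNAs and the RNAs themselves, with 28 peaks, none was enriched, against 5.04% of all genes. Snhg6, 1 of the 15 (6.67%, against 17.3% of all genes), had a depleted peak of -3.05 by the authors' deposited table. So few names leave little room for a call. Some peaks count under a host name and a small RNA name, such as Snhg1 and Snord22.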

How the data were processed

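The genome build mm10 and the tools STAR 2.7.7a, DESeq2 1.34.0, cutadapt 3.2 and UMI-tools 1.1.1 are named, per the submitters' processing notes. The sources used here do not give what each was used for, how peaks were called, whether libraries were pooled, whether inputs entered or how values were normalized. The values deposited by the authors are a log2 fold change per peak (ZFP36L2 over IgG, as the table's name has it) and, as −log10 values, its p-value and adjusted p-value, which were converted back here. There are 0 columns of values per library, so the planned tests of counts, leaving out libraries and pairing could not be run, and no motif was counted over the peaks, since no genome sequence was used; ATTTA was looked for only in the part of 1 peak that the promoter table holds. Peaks with several names count for each name. Positions are 1-based. RefSeq genes matched all 43 members by symbol, and 112 of the 115 peaks lay inside the matched gene.

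No set test was run: lists are described by counts and medians beside those of all peaks. The members, lists and thresholds were chosen with earlier results of these data known. Genes were named by rule: every member with a called peak (4 members, 1 of them with a call, are not reported one by one here), those with the most peaks, the peaks nearest each threshold and those with the highest and lowest values, and up to 4 called genes of each list by adjusted p. Other genes, including uncalled members, were chosen once values had been seen. The calling and naming rules were tested on simulated data. Alternatives were other thresholds, centring, merged peaks, left-out genes and 1 peak per gene. Python 3.11.15, pandas 2.3.3, scipy 1.17.1 and matplotlib 3.10.9 were used.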

Additional observations from a re-analysis of the deposited data

How the results depend on the processing

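The thresholds decided how many members were called. At a log2 fold change of at least 3, 2 peaks in 2 genes stayed enriched, those of Rps15 and Rps7, while 4 peaks in 3 genes stayed depleted, so that depleted calls outnumbered enriched ones. At an adjusted p under 0.01 the calls of Rpl4, Rps3 and Rps6 were lost. Centring on the median of all peaks moved the median of the members' peaks from 0.03 to 1.09. The deposited adjusted p could not be recomputed for centred values. Centring raised every value, so no enriched call could be lost, and that all 12 calls stayed says little about scaling. That median was 0.22 with touching peaks merged, 0.34 with 1 peak per gene, and 0.15 without Rps15a, the member with the most peaks. Without Rps15a, 3 peaks were depleted in place of 5. Without chromosome 7, an alternative chosen after seeing the data, 1 peak in 1 gene was depleted and 5 peaks in 5 genes were enriched. With the named pseudogenes added, also chosen after seeing the data, the coding share was 44.9%. No paired analysis was possible because the table holds no value per library, which also leaves the depth unknown.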
